A study of Xenopus laevis with 4 samples.

Results

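Cadherins, protocadherins and claudins, the proteins by which embryonic cells hold on to each other and seal their surface, were examined in early gastrulae of the frog *Xenopus laevis* (stage 10.5). The members are all gene models of the expression table named as a numbered cadherin (*cdh*), a protocadherin (*pcdh*), a numbered claudin (*cldn*), an alpha-catenin (*ctnna*) or a delta-catenin (*ctnnd*), together with occludin (*ocln*), plakoglobin (*jup*) and *epcam*. These were 105 of 45098 models, of which 35 had a mean normalized count of at least 10 and were tested. Measured values had no part in choosing the names, but the members were chosen with earlier results of these data known.

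The RNA came from 2 samples of embryos that received 0.8 ng of Gcn5-AS, an antisense DNA oligonucleotide against *gcn5* (*kat2a*), at the 1-cell stage, and from 2 samples of water-injected controls, each sample a pool of 10 whole embryos. The *gcn5* gene encodes a histone acetyltransferase of co-activator complexes, and the study depleted it to ask how embryonic transcription depends on it. No sample received a control oligonucleotide, so that effects of injected DNA as such and of less Gcn5 cannot be told apart here. The Gcn5-AS oligonucleotide is shown because it is the agent named for that group, with the run of bases without modified linkages in capitals.
Gcn5-AS: tcaaaCACAAGCcgggtt

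Classical cadherins join neighbouring cells through calcium-dependent extracellular repeats, and catenins tie their cytoplasmic tails to actin. Protocadherins carry similar repeats but bind weakly, and several of them act in cell sorting. Claudins and occludin form the tight junctions that close the gaps of an epithelium. In the *Xenopus* gastrula, adhesion by the maternally supplied C-cadherin is modulated while the mesoderm moves inside, and a protocadherin of the organizer and mesoderm, PAPC, takes part in that modulation and in the separation of tissues.

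The deposited table holds group means of size-factor normalized read counts, from which whole reads of each library were recovered. The recovered libraries are called X and Y within a group, X being the one with the larger size factor, and neither can be matched to a replicate number. Reads assigned to genes numbered 3679948 and 3610092 in Gcn5-AS embryos and 4093025 and 2351039 in controls. The 10 most abundant models took 35.1% and 49.8% of these reads in Gcn5-AS embryos and 40.1% and 49.6% in controls. Transcripts of *kat2a.L*, the target, had normalized counts of 52.9 and 62.6 in Gcn5-AS embryos and 50.4 and 103.5 in controls, and *kat2a.S* had 13.7 and 35.5 in Gcn5-AS embryos and 27.9 and 45.7 in controls. The groups overlapped at both homeologs, and limma-voom called neither (log2 fold change −0.26, 95% interval −1.11 to 0.58 and −0.67, −1.70 to 0.35). No decrease of the target was thus detectable in these libraries, whose controls differed from each other at *kat2a.L*. The paper checked the knockdown by other means. Quantitative PCR there found the target transcript depleted, and chromatin immunoprecipitation found promoters holding less of the protein. Injected embryos there had impaired involution and arrested in development, with signs of apoptosis that were mostly ventral. These defects were rescued there with human *GCN5* mRNA, also when its acetyltransferase domain was mutated. Whether those measurements used the embryos sequenced here is not stated, and whether the groups matched in cell types was not tested. Gcn5-AS X stood furthest from the controls: across the 35 members, the SD of log2 ratios to both controls was 1.23 and 1.18 in Gcn5-AS X and 0.71 and 0.69 in Gcn5-AS Y, and between both controls it was 0.45. Between Gcn5-AS X and Gcn5-AS Y it was 0.74, so that by this measure Gcn5-AS Y was no nearer to Gcn5-AS X than to the controls. Of the early gastrula markers *t*, *mix1*, *mixer*, *gsc*, *sox17* and others (9 of 14 symbols had a row), 16 models were measured, and those of blood, heart and skeletal muscle (*hba1*, *hbg1*, *myh6*, *actc1*) had at most 4.29 normalized counts in any library. The labels group the samples by title and knockdown, since the injection text of the controls repeats that of the Gcn5-AS samples, and they name no separate clutches. The spread behind each p-value is therefore that of these samples only and may be technical.

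To ask whether adhesion genes changed upon Gcn5 knockdown, the members were read out of a limma-voom fit over 11272 models, with calls at an adjusted p under 0.1. One member rose, the clustered protocadherin gene *pcdha13.L*, and 2 fell, the alpha-catenin gene *ctnna1.S* and the occludin gene *ocln.L*. These 3 are 8.57% of the 35 tested members, and over all models 8.63% were called, which is near the same share. Fits with a library left out have 1 library in a group and take the spread from the other group alone. Their calls therefore cannot show how far the share depends on that library. The median log2 fold change of the members was 0.51 without Gcn5-AS Y and 0.045 without Gcn5-AS X. By direction, 4.46% of all models were called higher and 4.17% lower. The split of calls over all models depended on scaling, with 503 higher and 470 lower by the deposited size factors and 19 and 171 with scaling by total reads, where 1 member was called (*ctnna1.S*).

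The families differed in direction beyond these few calls. All 14 measured protocadherin models had a positive log2 fold change, with a median of 0.98, except that *pcdh1.S*, at 0.00, was below 0 in 5 of the alternative settings, with −0.15 under scaling by total reads. All 11 models of cadherins, catenins, occludin and *epcam* had a negative one, with family medians of −0.87, −0.60 and −0.52, except that *jup.S*, at −0.01, was above 0 without Gcn5-AS Y or without control X. Claudins lay between them, with 8 of 10 models positive and a median of 0.25. Over all tested models 51.0% were positive and the median was 0.02. With scaling by total reads the median of all models was −0.15, against 0.77 for protocadherins and −1.01 for cadherins. A log2 fold change of at least 1 without overlap of the groups was seen in 5 protocadherins and *cldn5.L*, and one of at most −1 in *ctnna1.S*, *ocln.L* and *cdh1.S*, where 9.77% and 9.57% of all models reached these limits. Of these, *cldn5.L* and *cdh1.S* passed the filter on low counts only through the group where they were high, so that they had to differ. These family values describe the members and were not tested as lists. Most single members were not called, and their values are given below with their intervals.

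**Figure D1:**
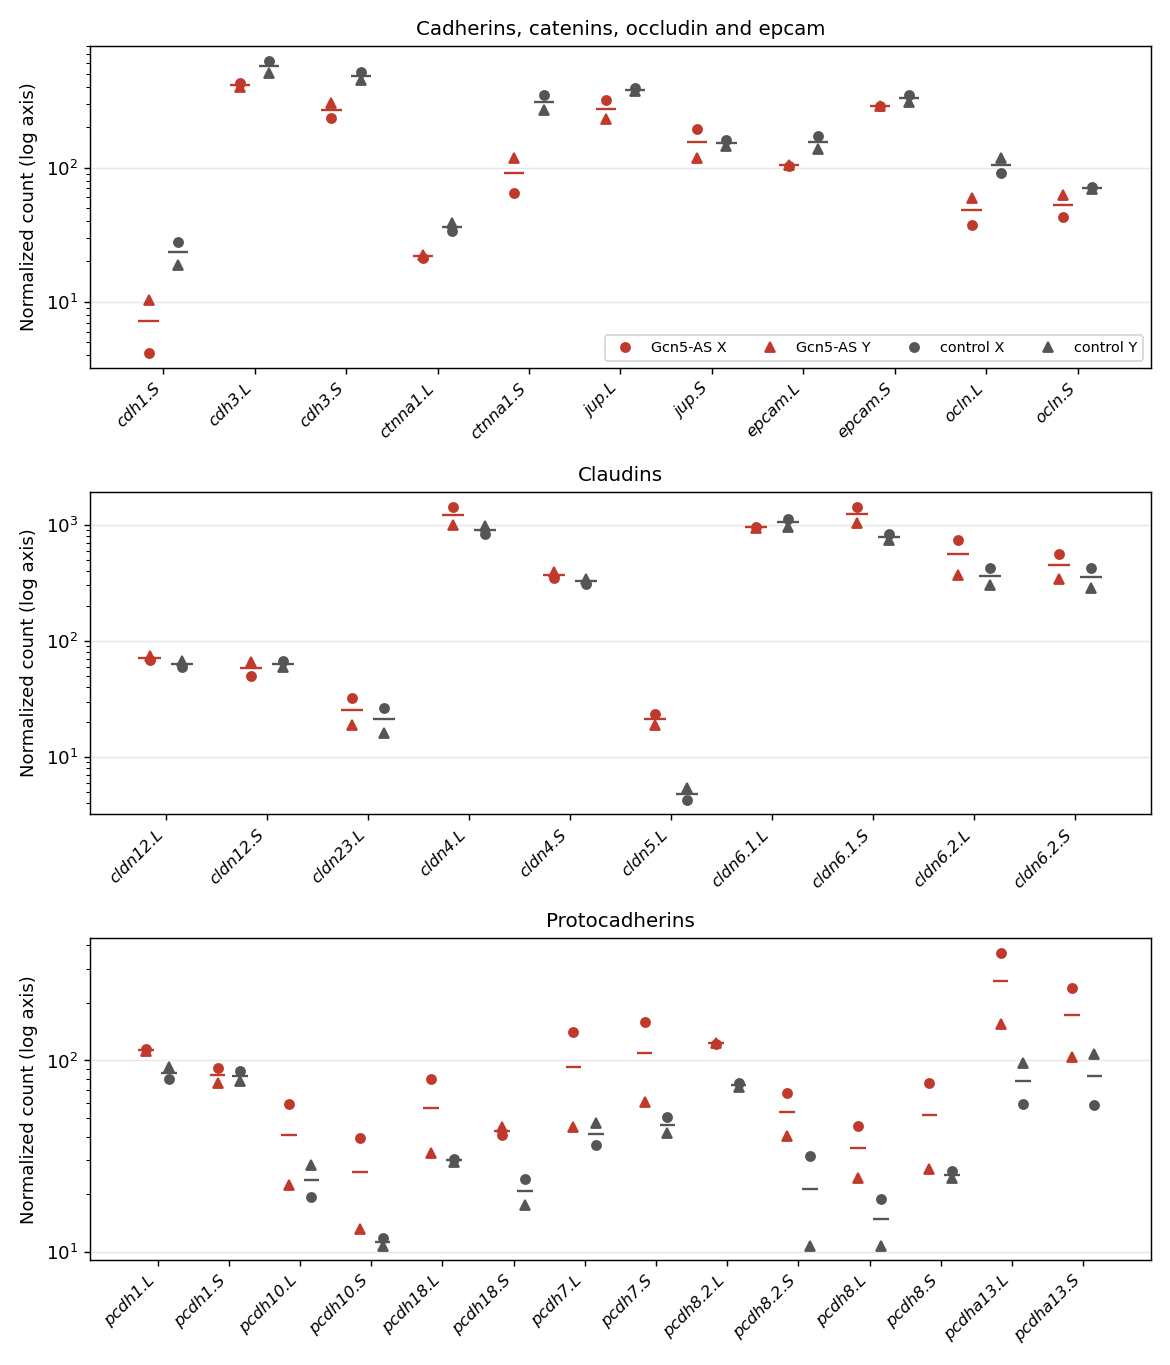
Normalized read count on a log axis of each measured member in the 2 Gcn5-AS libraries (left, red) and the 2 control libraries (right, grey), with circles for X, triangles for Y and a bar at the group mean. In 10 of 14 protocadherin models both Gcn5-AS libraries lie above both controls, and in 10 of the 11 models of the upper panel both lie below.

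Among the cadherins, transcripts of *cdh3*, which encodes C-cadherin, were the only ones with many reads. Normalized counts of *cdh3.L* were 429 and 398 in Gcn5-AS embryos and 628 and 511 in controls. Those of *cdh3.S* were 234 and 302 in Gcn5-AS embryos and 519 and 453 in controls. Both homeologs were below both controls in each Gcn5-AS library, yet neither passed the test, with log2 fold changes of −0.45 (interval −1.16 to 0.26, adjusted p of 0.464 by limma-voom) and −0.87 (−1.59 to −0.15, adjusted p of 0.145). With the reads of both homeologs summed, *cdh3* had 664 and 700 normalized counts in Gcn5-AS embryos and 1148 and 964 in controls, and was not called either (1.53-fold lower, adjusted p of 0.29 by limma-voom). The gene *cdh1*, encoding E-cadherin of the ectoderm, is the direct neighbour of *cdh3* in the RefSeq gene order. *cdh1.S* had 4.12 and 10.3 normalized counts in Gcn5-AS embryos and 27.9 and 18.8 in controls. It too lay below both controls, from 6 and 11 reads in Gcn5-AS embryos, with a log2 fold change of −1.95, a wide interval from −3.44 to −0.46, and an adjusted p of 0.118 in limma-voom. No read was assigned to *cdh1.L*, which allows up to 3 reads per library, or 2.06 and 2.80 normalized counts in the Gcn5-AS libraries and 1.61 and 4.03 in the controls.

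Of the 40 cadherin rows 25 had no read and 12 had reads but a mean under 10. Those without a read included *cdh5* (the endothelial VE-cadherin), *cdh6*, *cdh8*, *cdh9* and *cdh10*, at both homeologs. The most read of the low rows was *cdh26.S*, with 4.12 and 3.74 normalized counts in Gcn5-AS embryos and 11.8 and 5.38 in controls. N-cadherin (*cdh2*), the delta-catenins and beta-catenin (*ctnnb1*) had no row under these names and were not analysed here.

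The larger of both called decreases was at the catenin step of the complex. Alpha-catenin links cadherin-bound beta-catenin to actin filaments. Transcripts of *ctnna1.S* had 64.6 and 118.6 normalized counts in Gcn5-AS embryos and 349 and 269 in controls. The groups were far apart, and the model was 3.54-fold lower (log2 fold change −1.82 ± 0.38 SE, interval −2.60 to −1.04, adjusted p of 0.0098 by limma-voom). The L homeolog had 21.3 and 22.4 in Gcn5-AS embryos and 33.8 and 39.0 in controls, also without overlap, but was not called (1.63-fold lower, interval of the log2 fold change −1.64 to 0.23). The share of *ctnna1* counts at the L homeolog was 24.8% and 15.9% in Gcn5-AS embryos and 8.82% and 12.7% in controls. The summed gene was 3.14-fold lower and called (adjusted p of 0.030 by limma-voom). The call of *ctnna1.S* held in every alternative setting that kept all libraries. With single libraries left out its log2 fold change was between −2.25 and −1.37, and it was −1.63 without control X. The neural alpha-catenin *ctnna2* had at most 2 reads in any library.

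Plakoglobin, encoded by *jup*, serves adherens junctions and desmosomes. *jup.L* had 318 and 232 normalized counts in Gcn5-AS embryos and 393 and 371 in controls, and was not called (log2 fold change −0.49, interval −1.21 to 0.23). *jup.S* had 195 and 118 in Gcn5-AS embryos and 160 and 145 in controls. Its groups overlapped, and its interval of −0.77 to 0.75 leaves room for changes in both directions.

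Occludin is a transmembrane protein of tight junctions with a regulatory part. *ocln.L* had 37.1 and 59.8 normalized counts in Gcn5-AS embryos and 91.7 and 118.3 in controls. It fell 2.21-fold (log2 fold change −1.14 ± 0.40 SE, interval −1.96 to −0.32), but with an adjusted p of 0.098 by limma-voom it lay at the threshold. Among alternatives with all libraries kept, the call held only with scaling by reads outside the 10 most abundant models. With single libraries left out the log2 fold change was between −1.46 and −0.78. *ocln.S* had 42.6 and 62.6 in Gcn5-AS embryos and 71.3 and 69.9 in controls and was not called (log2 fold change −0.47). The homophilic adhesion protein gene *epcam* showed close replicates in Gcn5-AS embryos only, with 103.1 and 104.6 at *epcam.L*, while controls had 171 and 139. At *epcam.S* the counts were 289 and 287 in Gcn5-AS embryos and 347 and 309 in controls. In both homeologs both Gcn5-AS libraries were below both controls, with log2 fold changes of −0.57 (interval −1.31 to 0.16) and −0.19 (−0.90 to 0.52), and neither was called.

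Across cadherins, catenins, occludin and *epcam*, both Gcn5-AS libraries lay below both controls in 10 of 11 models, where 25.0% of all models did so. The families were put together after their direction was seen, so that this share restates it, and *cdh1.S* is among the 10. These models come from 6 genes, and homeologs of a gene are not independent. Of epithelial markers from the superficial layer (6 of 8 symbols had a row), 7 models were measured with a median log2 fold change of −0.34, and 1 fell, the keratin gene *krt5.7.S* (458 and 569 normalized counts in Gcn5-AS embryos and 1466 and 1291 in controls). Their summed normalized counts, with rows below the filter included, were 4820 and 4359 in Gcn5-AS embryos and 5539 and 5643 in controls, while both rows of *itln1* were at 0 in every library. Both Gcn5-AS sums were thus below both controls, and the *krt5.7* rows carried this difference. Besides *krt5.7.S*, *krt5.7.L* had 486 and 515 normalized counts in Gcn5-AS embryos and 1102 and 679 in controls. The superficial markers were not tested as a set. The groups overlapped at *krt8.L*, the most abundant (log2 fold change 0.27), *krt8.S* (−0.34), *krt18.L* (−0.08) and *krt18.S* (−0.18). Both Gcn5-AS libraries lay below both controls at *krt5.7.S* (−1.42), *krt5.7.L* (−0.77) and *grhl3.L* (−0.55). The part of these markers in the lower junction transcripts was not tested, and in whole embryos fewer cells of a type and less RNA per cell cannot be told apart.

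**Figure D2:**
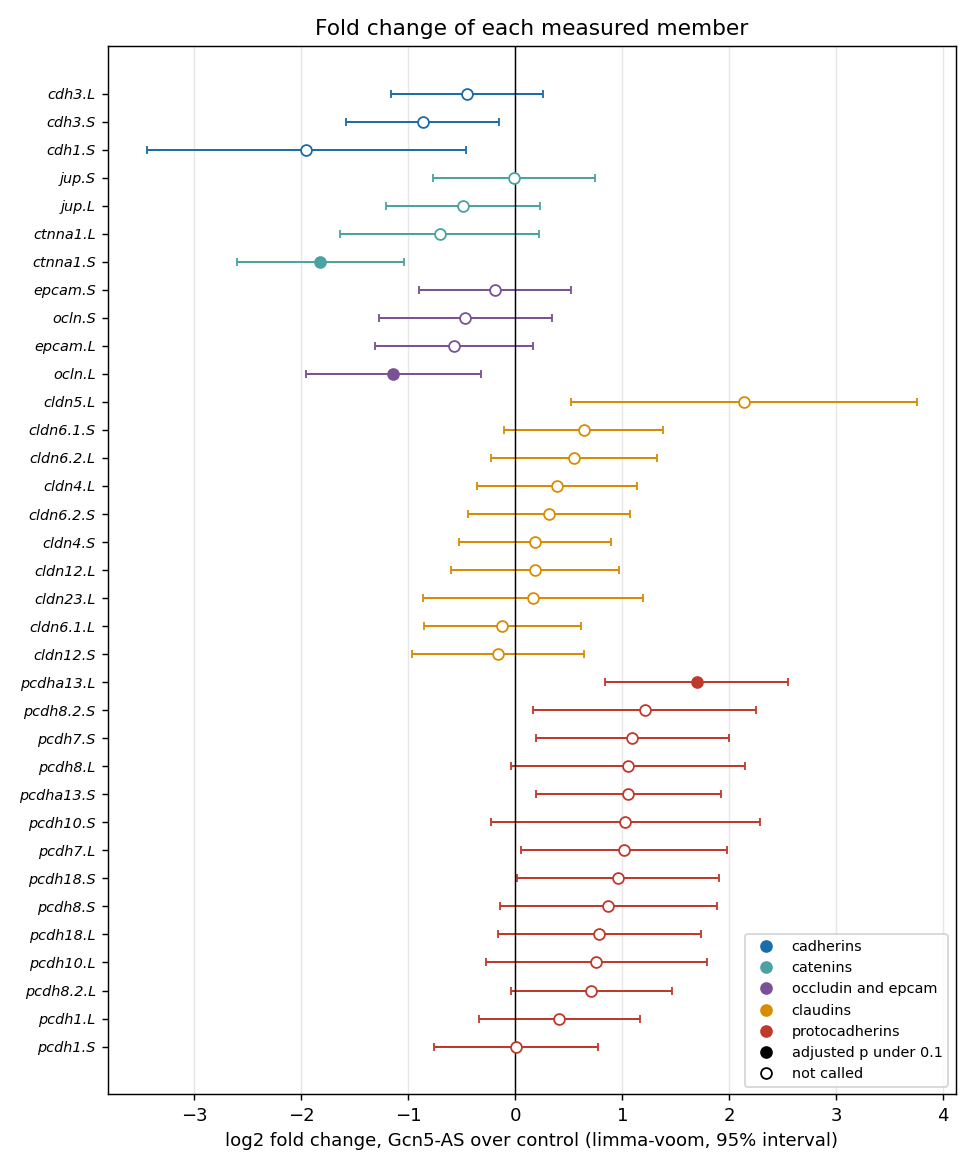
Log2 fold change of Gcn5-AS over control for the 35 measured members with 95% intervals from limma-voom, coloured by family, with filled points for an adjusted p under 0.1. Filled points are *ctnna1.S* (−1.82), *ocln.L* (−1.14) and *pcdha13.L* (1.70), and most other intervals include 0.

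The called increase was in a clustered protocadherin. Alpha-protocadherins are made in vertebrates from a gene cluster in which many first exons are each joined to the same constant exons, so that reads of the constant exons do not show which isoform they come from. *pcdha13.L* had 366 and 155 normalized counts in Gcn5-AS embryos and 59.5 and 96.8 in controls. Both Gcn5-AS libraries were above both controls, but they differed from each other more than the controls did. The model was 3.24-fold higher (log2 fold change 1.70 ± 0.42 SE, interval 0.84 to 2.55, adjusted p of 0.0243 by limma-voom). *pcdha13.S* had 240 and 105 in Gcn5-AS embryos and 58.4 and 107.6 in controls, where Gcn5-AS Y lay within the range of the controls, and it was not called (log2 fold change 1.05, interval 0.19 to 1.92, adjusted p of 0.143 by limma-voom). The summed gene was called (2.60-fold higher, adjusted p of 0.086 by limma-voom). The call of *pcdha13.L* was kept in 9 of 12 alternative settings. It was lost without Gcn5-AS X (log2 fold change 1.08, adjusted p of 0.207 by limma-voom), without control X (1.29, 0.536) and with scaling by total reads (adjusted p of 0.208). The other cluster rows, *pcdhac2*, *pcdhga11* and *pcdhgb7*, had no more than 1 read in any library.

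PAPC, the paraxial protocadherin of the organizer and early mesoderm, is encoded by *pcdh8*. *pcdh8.L* had 45.3 and 24.3 normalized counts in Gcn5-AS embryos and 18.8 and 10.8 in controls. *pcdh8.S* had 76.3 and 27.1 in Gcn5-AS embryos and 26.3 and 24.2 in controls. Both homeologs lay above both controls, though Gcn5-AS Y exceeded the higher control at *pcdh8.S* by under 1 normalized count. Neither was called (log2 fold changes of 1.06, interval −0.04 to 2.15, and 0.87, −0.15 to 1.88).

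A related gene, *pcdh8.2*, lies directly next to *pcdh8* in the RefSeq gene order of both subgenomes. *pcdh8.2.L* had 122 and 123 normalized counts in Gcn5-AS embryos and 76.7 and 72.6 in controls. This is the tightest of the protocadherin differences, with close replicates in both groups, and it was 1.64-fold (log2 fold change 0.71, interval −0.04 to 1.46, adjusted p of 0.257 by limma-voom). *pcdh8.2.S* had 67.3 and 40.2 in Gcn5-AS embryos and 31.6 and 10.8 in controls (log2 fold change 1.21, interval 0.17 to 2.25), also without overlap and not called.

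NF-protocadherin, encoded by *pcdh7*, acts in the adhesion of embryonic ectoderm in *Xenopus*. *pcdh7.L* had 140.8 and 44.8 normalized counts in Gcn5-AS embryos and 35.9 and 47.1 in controls. *pcdh7.S* had 159 and 60.7 in Gcn5-AS embryos and 50.4 and 41.7 in controls. Gcn5-AS X carried most of the difference at both homeologs, and at *pcdh7.L* Gcn5-AS Y lay within the controls. The log2 fold changes of 1.01 (interval 0.05 to 1.98) and 1.09 (lower bound 0.19) were not called, with an adjusted p of 0.205 and 0.145 by limma-voom.

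The neighbouring genes *pcdh18* and *pcdh10* encode protocadherins of the delta group, as *pcdh8* does. *pcdh18.S* had 40.5 and 44.8 normalized counts in Gcn5-AS embryos and 24.1 and 17.5 in controls, and *pcdh18.L* had 79.7 and 32.7 in Gcn5-AS embryos and 30.6 and 29.6 in controls. At *pcdh10.L* the counts were 59.1 and 22.4 in Gcn5-AS embryos and 19.3 and 28.2 in controls, and at *pcdh10.S* 39.2 and 13.1 in Gcn5-AS embryos and 11.8 and 10.8 in controls. In 3 of these 4 models Gcn5-AS X was far above the other libraries, while both Gcn5-AS libraries were high at *pcdh18.S*. None was called, with log2 fold changes between 0.76 and 1.03.

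The axial protocadherin gene *pcdh1* stood nearest to the controls in this family. *pcdh1.L* had 115 and 112 normalized counts in Gcn5-AS embryos and 79.9 and 92.8 in controls (log2 fold change 0.41, interval −0.34 to 1.16). *pcdh1.S* had 91.4 and 76.6 in Gcn5-AS embryos and 88.5 and 78.0 in controls, with overlapping groups. Below the filter, *pcdh20.S* had 13.7 and 11.2 in Gcn5-AS embryos and 3.75 and 5.38 in controls, and *pcdh9.L* had 7 and 6 reads in Gcn5-AS embryos and 2 and 0 in controls. They were not tested.

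Counted over the family, 10 of 14 protocadherin models had both Gcn5-AS libraries above both controls, where 26.3% of all models did, and 6 had an unadjusted p under 0.05, all of them higher, as 11.8% of all models were with that p. Each gene among the 14 models is counted at both homeologs, and homeologs of a gene are not independent. Summed normalized counts of the 14 models were 1643 and 882 in Gcn5-AS embryos and 612 and 668 in controls. Those of the 3 cadherin models were 668 and 710 in Gcn5-AS embryos and 1176 and 983 in controls. The ratio of both sums, which does not depend on scaling between libraries and was chosen after its values were seen, was 2.46 and 1.24 in Gcn5-AS embryos and 0.52 and 0.68 in controls. The protocadherin part of it was uneven between Gcn5-AS libraries. Without Gcn5-AS X the protocadherin median was 0.38, and without Gcn5-AS Y it was 1.51. The medians of all models in these fits were 0.03 and 0.04. Calls of these fits rest on the spread of the controls alone, since each has 1 Gcn5-AS library. Early gastrula markers were also higher: 7 of their 16 measured models were called higher, where 4.46% of all models were. The 7 were both homeologs of *mix1*, *gsc* and *foxi2*, and *sox17b.1.S*. The median log2 fold change of the 16 was 0.85, and their summed counts were 9795 and 8661 in Gcn5-AS embryos and 4990 and 5008 in controls. Single markers differed in evenness between the Gcn5-AS libraries. In Gcn5-AS X and Y, *mix1.S* had 860 and 434 normalized counts and *foxi2.S* 404 and 183, while *sox17b.1.S* had 1205.7 and 1649.5. The part of early gastrula markers in the protocadherin difference was not tested. The pan-mesodermal marker *t* had 622 and 351 normalized counts at *t.S* in Gcn5-AS embryos and 493 and 401 in controls, with overlapping groups, and *t.L* had 114.0 and 84.1 in Gcn5-AS embryos and 126.5 and 123.7 in controls, below both controls and not called.

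**Figure D3:**
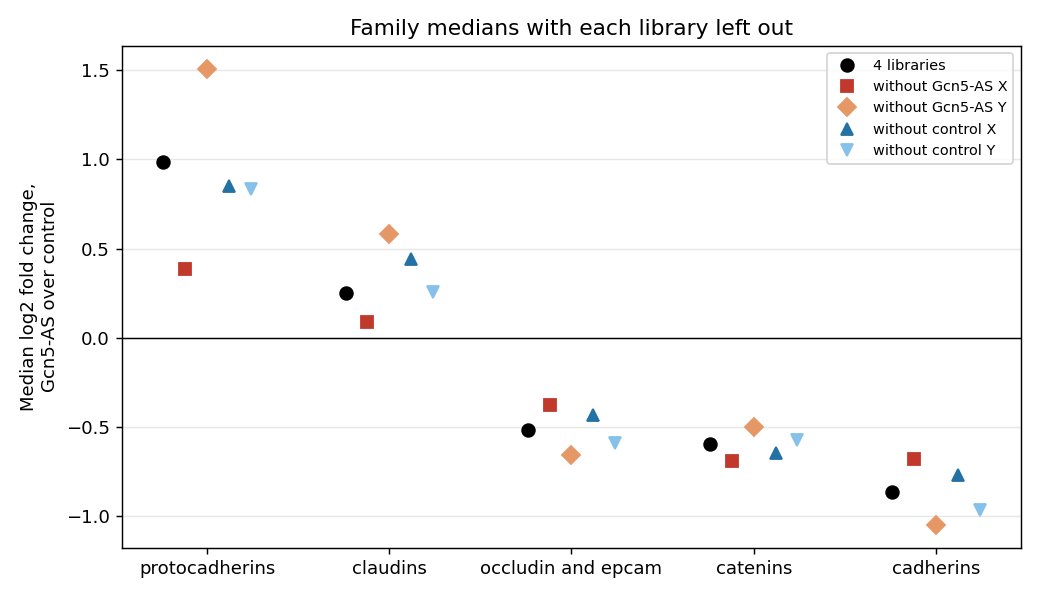
Median log2 fold change of Gcn5-AS over control in each family with 4 libraries and with each library left out. The protocadherin median ranges between 0.38 and 1.51, the claudin median between 0.09 and 0.58, and the cadherin, catenin and occludin and *epcam* medians stay below 0 in each case.

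Claudins, the tetraspan proteins that set the tightness of epithelia, had the most reads of the families, and the differences of the abundant ones lay between 1.09-fold lower (*cldn6.1.L*) and 1.56-fold higher (*cldn6.1.S*). *cldn4.L* had 1414 and 991 normalized counts in Gcn5-AS embryos and 827 and 968 in controls. *cldn6.1.S* had 1433 and 1041 in Gcn5-AS embryos and 828 and 740 in controls. Both were above both controls, though *cldn4.L* only narrowly in Gcn5-AS Y, with log2 fold changes of 0.39 (interval −0.36 to 1.14) and 0.64 (−0.10 to 1.38). *cldn6.1.L* had 963 and 945 in Gcn5-AS embryos and 1129 and 966 in controls, on the other side of 0 (−0.12, −0.85 to 0.61). *cldn6.2*, which lies next to *cldn6.1*, had 746 and 370 at the L homeolog in Gcn5-AS embryos and 422 and 303 in controls. Its S homeolog had 561 and 339 in Gcn5-AS embryos and 423 and 288 in controls, and at both the groups overlapped. These neighbours are close relatives, as are the homeologs, and reads of similar copies may have been split uncertainly by the authors' counting. *cldn4.S* had 350 and 391 in Gcn5-AS embryos and 311 and 342 in controls (log2 fold change 0.18, which turned to −0.02 with scaling by reads outside the 10 most abundant models).

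None of the abundant claudins was called with all libraries, and the bounds of their intervals lay between −0.85 and 1.38. The log2 fold change of *cldn6.2.L* was 1.05 without Gcn5-AS Y and 0.04 without Gcn5-AS X, each with 1 Gcn5-AS library left. With scaling by reads outside the 10 most abundant models, 5 of the 10 claudin models were positive and 5 negative. *cldn12.L*, *cldn12.S* and *cldn23.L* had log2 fold changes between −0.17 and 0.18. Of the 29 claudin rows 16 had no read, among them *cldn1*, *cldn3*, *cldn14* and *cldn16* at both homeologs.

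*cldn5*, known for the endothelium of blood vessels, was the exception in size. *cldn5.L* had 23.4 and 18.7 normalized counts in Gcn5-AS embryos and 4.29 and 5.38 in controls, which are 34 and 20 reads against 8 and 4. The groups were well apart (log2 fold change 2.14, interval 0.52 to 3.75, adjusted p of 0.115 by limma-voom), but the model was not called. It passed the filter on low counts only through the Gcn5-AS group, as *cdh1.S* did only through the controls. *cldn5.S*, just under the filter with a mean of 9.48 against 12.9 for *cldn5.L*, had 18.5 and 12.1 in Gcn5-AS embryos and 5.90 and 1.34 in controls. The reads of both homeologs summed gave 41.9 and 30.8 normalized counts in Gcn5-AS embryos and 10.2 and 6.72 in controls, which again passed the filter only through the Gcn5-AS group and was called in that setting (3.87-fold higher, interval of the log2 fold change 0.74 to 3.17, adjusted p of 0.079 by limma-voom).

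*X. laevis* is allotetraploid, so that each gene can be read at an L and an S homeolog. Of 16 member genes with both homeologs tested, both lay on the same side of 0 in 14, which is 87.5%, against 73.8% of all 2286 pairs. The exceptions were *cldn6.1* and *cldn12*. Pairs outside the claudins had to agree, as their families lay wholly on the same side, so that the share restates the family directions. Of the claudin pairs, which were free to differ, *cldn4* and *cldn6.2* agreed. The median difference between homeologs was 0.40 on the log2 scale for members and 0.41 for all pairs. Directly adjacent member genes of the RefSeq order formed 7 pairs with both tested, and 6 of these pairs lay on the same side of 0. Pairs of protocadherins and the pair of *cdh1.S* and *cdh3.S* had to agree, as their families lay wholly on the same side. Only *cldn6.2* and *cldn6.1* were free to differ, and they did so at the L homeologs but not at the S homeologs. Adjacent pairs over all models were not counted. Homeologs and neighbours with similar sequence may share reads and are no replicates of each other.

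**Figure D4:**
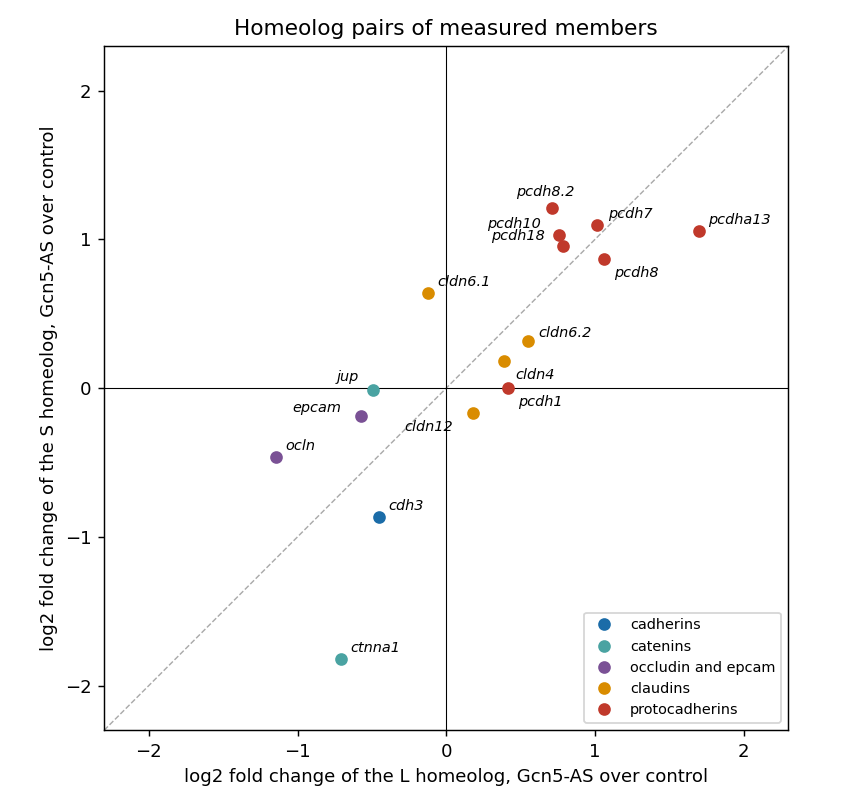
Log2 fold change of Gcn5-AS over control at the S homeolog against that at the L homeolog for 16 member genes, coloured by family, with a dashed line of equal change. Protocadherins lie to the upper right, *ctnna1*, *cdh3*, *ocln*, *epcam* and *jup* to the lower left, and *cldn6.1* and *cldn12* have homeologs on opposite sides of 0.

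Other genes of cell junctions, cell polarity and cadherin regulation were read out from a list of 113 symbols, of which 47 had a row and 58 models were tested. One rose and 2 fell, where 8.63% of all models were called in either direction, and 24 had a positive and 34 a negative log2 fold change, with a median of −0.10, where 51.0% of all models were positive. Transcripts of *celsr2.L*, a seven-pass cadherin of planar cell polarity, had 17.9 and 20.5 normalized counts in Gcn5-AS embryos and 103.5 and 102.2 in controls (5.32-fold lower, adjusted p of 0.0037 by limma-voom). Its homeolog *celsr2.S* had 1909 and 1231 in Gcn5-AS embryos and 745 and 988 in controls, was not called, and lay on the other side (log2 fold change 0.81). The L model thus held a small share of the reads of the gene, and with homeologs summed the log2 fold change turned to 0.66. The small GTPase gene *rhoa.S* fell (28.9 and 34.6 in Gcn5-AS embryos and 89.5 and 57.8 in controls), and the polarity gene *pard6g.L* rose (37.1 and 40.2 in Gcn5-AS embryos and 13.4 and 13.4 in controls). Both lay near the threshold, with an adjusted p of 0.091 and 0.090 by limma-voom. Among alternatives with all libraries kept, *rhoa.S* was called only with scaling by reads outside the 10 most abundant models. In those alternatives *pard6g.L* was called only in the limma-trend fits. The groups overlapped at the homeologs *rhoa.L* (log2 fold change −0.24) and *pard6g.S* (0.56), which were not called. With homeologs summed, neither *rhoa* nor *pard6g* was called. Among 9 models of adherens junction partners, 5 were positive and 4 negative, with a median of 0.25, and only *celsr2.L* was called. Of 19 models of cadherin regulators of the gastrula, 7 were positive and 12 negative, with a median of −0.11, and only *rhoa.S* was called. Desmosome models were mostly negative, 4 of 5 with a median of −0.56, and those of tight junction partners and polarity had medians of −0.21 and −0.01, with none called among 15 models of desmosomes and tight junction partners, where 3 had an unadjusted p under 0.05, as had 22.0% of all models.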

How the data were processed

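RNA of stage 10.5 *X. laevis* embryos was depleted of ribosomal RNA and sequenced as single-end reads of 75 nucleotides. The authors mapped reads with STAR to genome JGI 9.1 allowing 1 mismatch. Not given in the sources used here are the read counter, the annotation release, versions of tools and the strand setting, so that a gene and one overlapping or antisense to it may share reads. The authors deposited a table of DESeq output. Its 2 signal columns are, per the authors, read counts per gene model divided by a size factor and averaged within a group. Its fold changes and p-values are the authors' own comparison and were not used.

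Each mean above 0 (21410 Gcn5-AS and 21721 control) had exactly 1 solution in whole reads of 2 libraries within a relative tolerance of 3e-14, which gave reads and size factors (Gcn5-AS X 1.46, Y 1.07, control X 1.87, Y 0.744). On simulated means all reads were recovered. The study used a threshold of 0.1 with another test, DESeq, so that its numbers of calls are not comparable with those given here. The two-sided limma-voom test (limma 3.58.1, R 4.3.3) was fitted to 11272 models with a mean of at least 10, with Benjamini-Hochberg adjustment and the same threshold of 0.1. On counts simulated for this comparison (10915 models tested, dispersion 0.0752), it found 5 of 100 changes of 1 and 51 of 99 changes of 2 on the log2 scale, and 1 of 57 calls was false. These rates hold for simulated counts of 1 dispersion. Whether they hold for the real libraries, where Gcn5-AS X stood furthest from the controls, was not tested. No negative binomial count model was fitted to the recovered reads. An exact permutation test of 2 against 2 libraries cannot go below a p of 0.333. Intervals are at 95%. The limit for 0 reads is set at 3 reads and covers counting error only, as no molecular identifiers were counted.

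Members and lists were chosen with earlier results of these data known. Described members are those called, the 12 with the highest mean, those with a log2 fold change of at least 1 either way without overlap, and their homeologs, with *kat2a* and the called models of the junction list. Others are described to account for the families and were chosen after their values were seen. Gene order and synonyms came from the RefSeq table of assembly v10.1, where 78 of 105 member symbols matched. No coordinates were used. Of the table, 1 emptied line was not analysed here. Alternatives were thresholds, filters, scalings, limma-trend, summed homeologs and leaving out each library.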

Additional observations from a re-analysis of the deposited data

How the results depend on the processing

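Of 363 values under alternatives of the 31 genes taken by the naming rule and measured (*kat2a*, *pcdh1* and others described beside them not counted), 311 kept direction and side of the threshold, 32 lost a call, 14 gained one and 6 changed sign. Changes of sign were *celsr2.L* (0.66, homeologs summed), *cldn6.1.L* (0.26, homeologs summed), *cldn4.S* (−0.022, scaling by reads outside the 10 most abundant models), *cldn6.2.S* (−0.049 without Gcn5-AS X, 0.67 without Gcn5-AS Y) and *jup.S* (0.35 without Gcn5-AS Y, 0.06 without control X). Outside that count, *pcdh1.S* was below 0 in 5 alternatives, and the target *kat2a.L* ranged between −0.85 and 0.19, and *kat2a.S* between −1.27 and 0.076, with single libraries left out. The cause was not tested. The lost and gained calls include fits with a library left out, whose calls rest on the spread of the other group.

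Over all models, calls were 320 higher and 197 lower at a mean count of at least 50, 19 and 171 with scaling by total reads, 223 and 242 at an adjusted p under 0.05, and with single libraries left out 6 to 1421 higher and 76 to 836 lower. Calls were 194 higher and 639 lower with scaling by reads outside the 10 most abundant models, and 324 and 339 with homeologs summed. Members called higher were 0 with scaling by total reads, 2 with homeologs summed and 0 to 12 with single libraries left out. Members called lower were 1 at a mean count of at least 50, with every model with a read, with total reads, in both limma-trend fits, with homeologs summed and at an adjusted p under 0.05, and 0 to 3 with single libraries left out. The highest of these numbers arose without Gcn5-AS Y. Each fit with a library left out has 1 library in a group, so that its calls rest on the spread of the other group. Of the junction list, 0 were higher at a mean count of at least 50, with every model with a read, in both read scalings, with homeologs summed and at 0.05, and 0 to 6 with single libraries left out. Lower calls of that list were 1 in these settings and in limma-trend, except 5 with reads outside the 10 most abundant models and 0 with homeologs summed, and 1 to 6 with single libraries left out.

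The median of the members was 0.045 to 0.51 with single libraries left out. That of cadherins was −0.66 at a mean count of at least 50, −0.46 with every model with a read and −1.28 with homeologs summed. That of catenins was −0.76 with total reads, −0.81 with reads outside the 10 most abundant models and −0.99 with homeologs summed. For occludin and *epcam* it was −0.66 and −0.73 in both read scalings and −0.66 to −0.38 with single libraries left out. Claudin medians were 0.090 to 0.58 and protocadherin medians 0.38 to 1.51 with single libraries left out. No paired analysis was possible because the group means do not show which library carries which replicate number. The widest standard errors among members were those of *cldn5.L* (0.78, from 4 to 34 reads a library) and *cdh1.S* (0.72, from 6 to 52 reads), and whether more reads would narrow them was not tested.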
